A study of Mus musculus with 14 samples.

Results

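The genes described here are the nuclear genes of oxidative phosphorylation, the respiratory chain and ATP synthase of the inner mitochondrial membrane. They were taken as every row of the expression table whose gene symbol begins with Nduf (complex I), is Sdha, Sdhb, Sdhc or Sdhd (complex II), begins with Uqcr or is Cyc1 (complex III), begins with Cox4 to Cox8 (complex IV) or begins with Atp5 (complex V, ATP synthase). The rule found 90 of the 24675 genes with a symbol. Of these, 36 fell to complex I, 8 were complex I assembly factors (Ndufaf genes), 4 belonged to complex II, 8 to complex III, 17 to complex IV and 13 to complex V. The other 4 were pseudogenes (Atp5c1-ps, Atp5l-ps1, Cox5b-ps and Ndufs5-ps) and were counted apart. Atp5g1, Atp5g2 and the mitochondrial DNA genes were not analysed here.

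Complexes I and II take electrons from NADH and succinate, complex III passes them from ubiquinol to cytochrome c, complex IV hands them to oxygen, and ATP synthase uses the proton gradient that complexes I, III and IV build. Most subunits are encoded in the nucleus and imported, and nuclear factors such as NRF1, GABP and YY1 bind the promoters of many of them. Intestinal crypt base stem cells carry active mitochondria, and autophagy, which needs the enzyme encoded by Atg7, is one route by which cells remove damaged mitochondria.

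Expression was read on 14 arrays (Affymetrix Mouse Gene 2.0 ST), each holding the amplified RNA of a single sort. Atg7KO mice were Atg7 fl/fl and carried Lgr5-EGFP-IRES-CreERT2, and WT mice carried Lgr5-EGFP-IRES-CreERT2 without the floxed alleles, so all mice had the reporter and the Cre. All received tamoxifen for 5 days in a row and were collected after 1 month, and the labels do not give their age. Crypt cells with low CD24 were sorted from individual mice into an EGFP high gate, which the labels name intestinal stem cells, and an EGFP low gate, named their transit amplifying progenitors. The groups were Atg7KO-High (n = 3), WT-High (n = 3), Atg7KO-Low (n = 4) and WT-Low (n = 4). Cre was driven from Lgr5, so recombination could occur in cells that expressed Lgr5 and be inherited by their descendants. Samples are named by group and the number in their title, as in WT-Low-411.

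Values are deposited log2 RMA values, and a log2 difference of 1 is a factor of 2. A gene was called when its limma p-value, adjusted by Benjamini-Hochberg over all 15873 genes tested, was below 0.05, and SE is that fit's standard error. Of the 86 protein-coding genes of the set, 83 passed the filter on low values and were tested. Lgr5 was higher in the EGFP high gate in both genotypes, by 3.32 (SE 0.33, adjusted p = 0.000138) in Atg7KO and 3.52 (SE 0.33, adjusted p = 0.000247) in WT. Atg7 lay between 5.91 and 6.37 in Atg7KO-High against 6.76 and 6.83 in WT-High, and between 5.65 and 6.06 in Atg7KO-Low against 6.46 and 7.49 in WT-Low. Its ranges did not overlap in either gate, but it was not called (adjusted p = 0.208 and 0.166), and the labels do not say whether its probes lie in the deleted part. The SD of all values on an array was 1.90 to 1.98 in Atg7KO-High, 1.99 to 2.06 in WT-High, 1.98 to 2.04 in Atg7KO-Low and 1.90 to 2.06 in WT-Low, where WT-Low-411 was lowest and was set apart from the rest by principal component 2. The spread therefore differed between Atg7KO-High and WT-High with no overlap, and its part in the results below was not tested beyond the fit that includes array SD as a term.

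The 3 genes taken as markers of the set, Sdhb, Uqcrfs1 and Cox8a, were each in the top quintile of all genes tested by mean level. Sdhb, the iron-sulfur subunit of succinate dehydrogenase that passes electrons from the flavin to ubiquinone, had 9.19, 9.35 and 9.74 in Atg7KO-High, 9.75, 10.00 and 10.08 in WT-High, 10.06, 10.21, 10.26 and 10.37 in Atg7KO-Low, and 9.80, 9.90, 10.13 and 10.25 in WT-Low. The 3 Atg7KO-High arrays were the lowest of the 14. Uqcrfs1, the Rieske iron-sulfur protein of complex III, ran from 6.80 to 7.40 in Atg7KO-High, 7.35 to 7.70 in WT-High, 7.54 to 8.15 in Atg7KO-Low and 7.21 to 7.67 in WT-Low. Cox8a, a small structural subunit of complex IV, ran from 10.53 to 10.91 in Atg7KO-High, 10.72 to 11.16 in WT-High, 10.86 to 11.07 in Atg7KO-Low and 10.39 to 10.79 in WT-Low. For Sdhb and Uqcrfs1 Atg7KO-Low had the highest group mean and Atg7KO-High the lowest, whereas for Cox8a the lowest mean was that of WT-Low.

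Averaged over the 83 genes, the level was 8.61, 8.63 and 8.74 in Atg7KO-High, 8.58, 8.72 and 8.80 in WT-High, 8.86, 8.86, 8.89 and 8.96 in Atg7KO-Low, and 8.50, 8.62, 8.74 and 8.81 in WT-Low. All 4 Atg7KO-Low arrays lay above the other 10. For complex I the mean per array ran from 8.94 to 9.07 in Atg7KO-Low against 8.58 to 8.89 in WT-Low, and for complex III from 9.96 to 10.14 against 9.62 to 9.88, so neither overlapped. For complex IV they met at their edges, with 8.00 to 8.11 in Atg7KO-Low and 7.69 to 8.01 in WT-Low. Complexes II and V overlapped between these groups, with 9.56 to 9.90 against 9.03 to 9.77 and 9.40 to 9.59 against 9.16 to 9.47. In the EGFP high gate complex II ran from 9.21 to 9.43 in Atg7KO-High against 9.44 to 9.73 in WT-High, without overlap, and complex V from 9.40 to 9.50 against 9.32 to 9.42, with overlap.

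**Figure D1:**
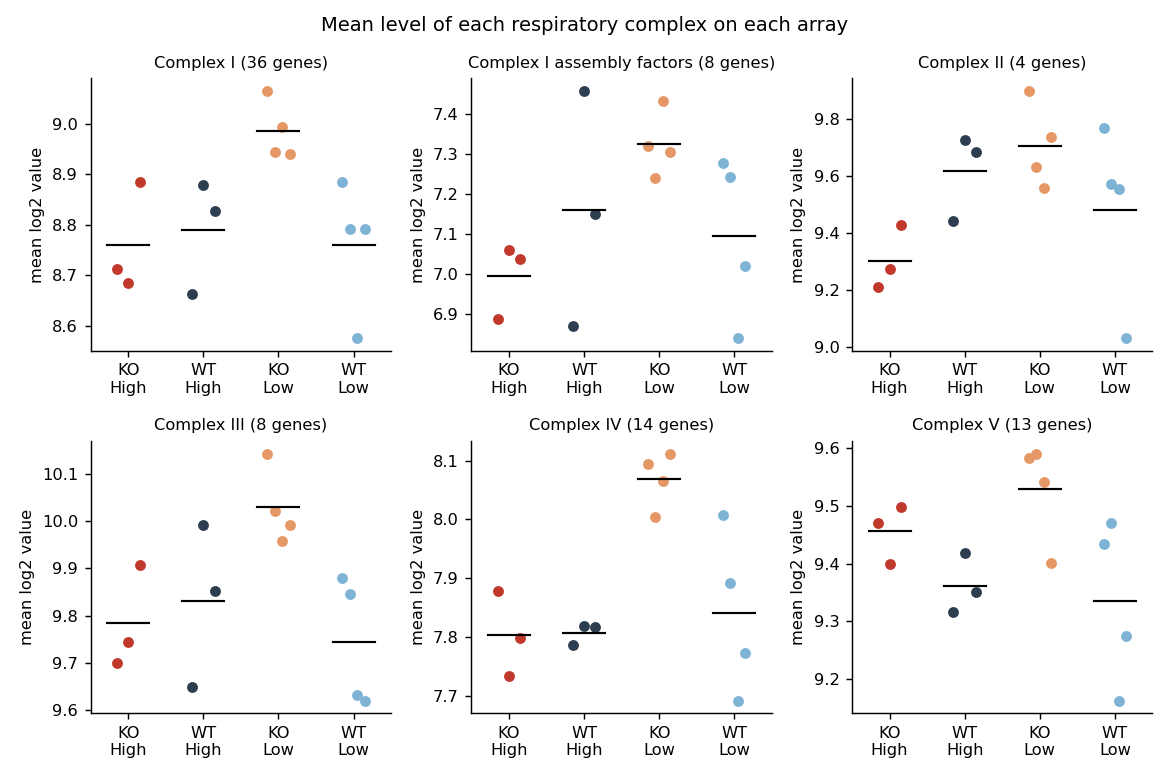
Mean log2 value over the tested genes of each complex (vertical axes, which differ between panels and do not start at 0) on each of the 14 arrays, by group (KO is Atg7KO). Points are arrays and bars are group means. Atg7KO-Low had the highest mean in all 6 panels. Atg7KO-High had the lowest mean for complex II and for the complex I assembly factors (7.00, with 7.10 in WT-Low). It was also lowest, narrowly, for complex IV (7.804, with 7.808 in WT-High), and for complex I it equalled WT-Low at 8.76.

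In the EGFP low gate, the transit amplifying cells, most of the genes were slightly higher in the knockout. Of the 83 genes, 76 were higher in Atg7KO-Low than in WT-Low and 7 lower. The median difference was 0.22, against a median of 0.00 over all genes tested. No gene of the set was called by limma, and 0.0063% of all genes tested were called. At an unadjusted p below 0.05, 11 were higher and 0 lower, where 3.86% of all genes were higher and 3.4% lower. The arrays did not overlap for 11 genes (13.3% of the 83), all higher in the knockout, where 1.71% of all genes were higher and 1.69% lower without overlap. By complex, the median was 0.19 for complex I (32 of 36 higher), 0.27 for complex II (3 of 4), 0.26 for complex III (8 of 8), 0.24 for complex IV (14 of 14) and 0.22 for complex V (13 of 13). The complex I assembly factors had a median of 0.28, with 6 of 8 higher.

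The smallest p in this comparison belonged to Ndufa12, an accessory subunit of complex I. It had 11.41, 11.41, 11.48 and 11.75 in Atg7KO-Low, against 10.59, 10.84, 11.04 and 11.10 in WT-Low. No arrays overlapped, and the difference was 0.62 (SE 0.14, adjusted p = 0.441). Uqcrq, a small membrane subunit of complex III, had 9.76, 10.04, 10.36 and 10.46 in Atg7KO-Low, against 9.54, 9.67, 9.69 and 9.76 in WT-Low. Its difference was 0.49 (SE 0.16, adjusted p = 0.557), with the lowest Atg7KO-Low array above the highest WT-Low array by less than the rounding. Cox6b1, the intermembrane-space subunit that links complex IV monomers, had 10.11, 10.25, 10.32 and 10.40 in Atg7KO-Low, against 9.73, 9.80, 9.90 and 10.08 in WT-Low. Its difference was 0.39 (SE 0.13, adjusted p = 0.567), again without overlap.

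Cox8a differed by 0.34 (SE 0.14, adjusted p = 0.665) and its arrays did not overlap. Ndufa8, an accessory subunit of complex I on the intermembrane-space side, had 9.40 to 9.70 in Atg7KO-Low against 8.71 to 9.37 in WT-Low, a difference of 0.46 (SE 0.17, adjusted p = 0.613). Uqcrfs1 (0.40, SE 0.18, adjusted p = 0.674) and Sdhb (0.21, SE 0.15, adjusted p = 0.806) overlapped between the groups. In complex II, the membrane anchors Sdhc and Sdhd differed by 0.33 and 0.47, and Sdha, the flavoprotein that oxidises succinate, by -0.11. Atp5a1 and Atp5b, which form the catalytic head of ATP synthase, differed by 0.06 and 0.10.

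**Figure D2:**
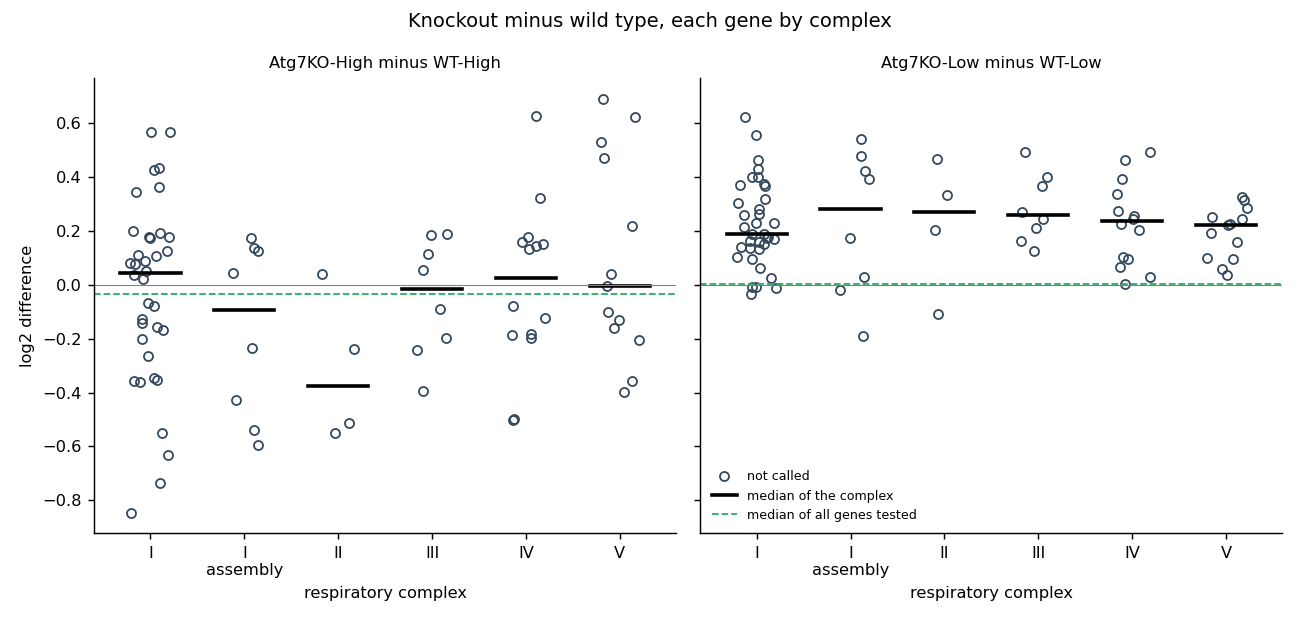
Log2 difference of each tested gene (circles) by complex, Atg7KO-High minus WT-High on the left and Atg7KO-Low minus WT-Low on the right, with the median of each complex (black bars) and of all genes tested (dashed line). In the EGFP low gate 76 of 83 genes lay above 0, whereas in the EGFP high gate 42 lay above and 41 below, and no gene was called in either.

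Setting aside WT-Low-411 left 73 of the 83 genes higher and a median of 0.19 in the EGFP low gate, and leaving out each of the 8 arrays in turn gave medians between 0.15 and 0.27. Normalising the arrays again by cyclic loess gave 70 higher and a median of 0.14. Enterocyte markers averaged 8.75 to 10.09 in Atg7KO-Low and 9.02 to 9.75 in WT-Low, goblet cell markers 11.71 to 12.01 and 11.83 to 12.28, and Paneth cell markers 10.59 to 11.31 and 11.03 to 12.06, all overlapping. In sorted bulk samples such as these, fewer cells of a type and less RNA per cell cannot be told apart.

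In the EGFP high gate, the stem cells, the knockout showed no shared direction. Of the 83 genes, 42 were higher in Atg7KO-High than in WT-High and 41 lower, with a median of 0.02 (all genes tested, -0.03). No gene of the set was called by limma, where 0.0126% of all genes tested were called. At an unadjusted p below 0.05, 7 were higher and 10 lower, where 5.99% of all genes were higher and 9.88% lower. The arrays did not overlap for 12 genes that were higher (14.5%) and 11 that were lower (13.3%), near the 10.2% and 15.2% of all genes tested. The sign of the median turned with the arrays and the scaling used. It was -0.08 without WT-High-388, with 35 genes higher, and -0.04 without Atg7KO-High-386. It was 0.12 after cyclic loess, with 52 higher and 31 lower, -0.08 after centring each array on its median, with 32 higher and 51 lower, and 0.08 when array SD entered the fit, with 57 higher and 26 lower.

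Several genes of complexes I, II and V lay below WT without being called. Without overlap, 4 of 36 genes of complex I were lower (11.1%) and 5 higher (13.9%), against 15.2% and 10.2% of all genes tested. In complex II 3 of 4 were lower and 0 higher, and in complex V 3 of 13 were lower (23.1%) and 4 higher (30.8%). The 3 lower genes of complex V were Atp5a1 (-0.40), Atp5b (-0.20) and Atp5d (-0.36). Ndufv1, which binds NADH and flavin in complex I, had 8.11, 8.16 and 8.31 in Atg7KO-High, against 8.63, 8.90 and 8.94 in WT-High. The arrays were well apart, with a difference of -0.63 (SE 0.20, adjusted p = 0.184). Ndufs1, the largest iron-sulfur subunit of complex I, had 7.35, 7.73 and 7.83 in Atg7KO-High, against 7.98, 8.26 and 8.32 in WT-High, a difference of -0.55 (SE 0.17, adjusted p = 0.185). Sdha had 9.41, 9.50 and 9.52 in Atg7KO-High, against 9.86, 10.08 and 10.15 in WT-High. That is a difference of -0.55 (SE 0.18, adjusted p = 0.198), and its 3 knockout arrays were nearly equal. Sdhb differed by -0.51 (SE 0.18, adjusted p = 0.208), with 9.74 on the highest knockout array and 9.75 on the lowest wild-type array. Sdhc did not overlap either, and Sdhd, at 0.04, did. Ndufv2 and Ndufv3, which sit beside Ndufv1, each differed by 0.11, with overlap. The accessory subunits Ndufab1 (-0.73) and Ndufa10 (-0.36) were below WT without overlap. Ndufs3, a core subunit of the matrix arm, differed most among the lower genes, by -0.85 (SE 0.25, adjusted p = 0.181). It had 4.10, 4.94 and 5.13 in Atg7KO-High, against 5.09, 5.77 and 5.85 in WT-High, which is low on the array. Atg7KO-High-356, at 5.13, lay above WT-High-388, at 5.09, and Atg7KO-High-348 was the lowest.

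Other genes lay above WT, also without being called. Ndufb6, an accessory subunit of the membrane arm of complex I, had 9.22, 9.24 and 9.40 in Atg7KO-High, against 8.63, 8.65 and 8.88 in WT-High, a difference of 0.57 (SE 0.17, adjusted p = 0.181). Atp5md, a small subunit of the ATP synthase membrane part, had 10.43, 10.62 and 10.65 in Atg7KO-High, against 9.87, 9.92 and 10.04 in WT-High, a difference of 0.62 (SE 0.22, adjusted p = 0.208). Atp5e, the epsilon subunit of the central stalk, had 11.72, 11.97 and 11.98 in Atg7KO-High, against 11.30, 11.38 and 11.41 in WT-High, a difference of 0.53 (SE 0.19, adjusted p = 0.214). None of these arrays overlapped. Cox6a2, the heart and skeletal muscle isoform of a complex IV subunit, had 4.88, 4.99 and 5.07 in Atg7KO-High, against 4.07, 4.37 and 4.61 in WT-High, which is low on the array, with a difference of 0.63 (SE 0.15, adjusted p = 0.131). Weighting arrays by their fit called 8 genes of the set, 3 higher and 5 lower, in place of 0. The share of all genes called with these weights is not given here, so the 8 were not set against it.

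A list of 19 tested catalytic or central subunits was compared with the other 64 genes, without a test, since both were chosen with earlier results of these data known. The 19 were Ndufv1, Ndufv2, Ndufs1, Ndufs3, Ndufs7, Ndufs8, Sdha, Sdhc, Sdhd, Uqcrc1, Uqcrc2, Cyc1, Cox4i1, Cox5a, Cox5b, Atp5a1, Atp5b, Atp5c1 and Atp5o. The iron-sulfur subunits Sdhb and Uqcrfs1 were not on the list, and like Cox8a they were counted among the 64. The 64 are therefore not all without a catalytic or electron-carrying role. In Atg7KO-High against WT-High, 5 of the 19 were higher (26.3%) and their median was -0.24, whereas the 64 had 37 higher and a median of 0.07. All of the 19 except Ndufs3, Cox5b and Atp5c1 were in the top quintile of all genes tested by mean level. All genes tested in that quintile had a median of -0.24, with 23.3% higher, so the 19 lay near the genes of their level. In Atg7KO-Low against WT-Low, 17 of the 19 were higher (median 0.21), as were 59 of the 64 (median 0.22). Their mean level was 8.88, 8.96 and 9.11 in Atg7KO-High and 9.05, 9.31 and 9.35 in WT-High, with overlap. Cox4i1, the ubiquitous isoform of the regulatory subunit of complex IV, went the other way from most of the 19, with 11.55 to 11.59 in Atg7KO-High and 11.28 to 11.48 in WT-High. It was the 1 gene of the 19 that was higher without overlap (5.26%), where 6 were lower without overlap (31.6%). Of all genes tested, 10.2% were higher and 15.2% lower without overlap.

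The 83 genes sat high on the arrays, with 60 of them in the top quintile of all genes tested by mean level. In that quintile, all genes tested had a median of -0.24 in Atg7KO-High against WT-High, with 23.3% higher, and the 60 had a median of 0.03, with 51.7% higher. In Atg7KO-Low against WT-Low the median was 0.06 over that quintile (60.3% higher) and 0.23 over the 60 (96.7% higher). The difference between knockout and wild type in the EGFP high gate ran with level over all genes, at a median of 0.13 in the lowest quintile and -0.24 in the top quintile. No cell type marker gene was called in this comparison. Goblet cell markers averaged 8.88, 9.53 and 10.70 in Atg7KO-High against 10.25 to 10.86 in WT-High, with overlap, and Paneth cell markers 8.94, 9.79 and 10.05 against 10.48 to 11.36, without overlap. Enterocyte markers averaged 7.91 to 8.09 in Atg7KO-High and 7.96 to 9.40 in WT-High, and stem cell markers 8.33 to 8.62 and 8.48 to 8.57. The part of these cell types in the levels of the set was not tested.

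**Figure D3:**
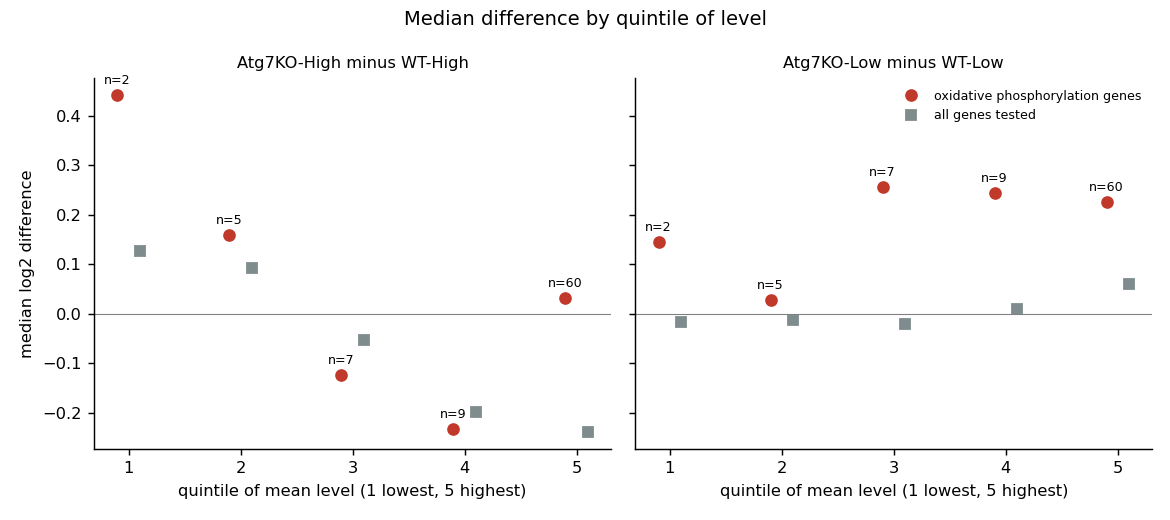
Median log2 difference (vertical axis) by quintile of mean level (horizontal axis, 1 lowest), for the oxidative phosphorylation genes (circles, with their number) and all genes tested (squares), Atg7KO-High minus WT-High on the left and Atg7KO-Low minus WT-Low on the right. In the top quintile the 60 genes of the set lay at 0.03 and 0.23, above the -0.24 and 0.06 of all genes in that quintile.

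In Atg7KO, more genes of the set were lower in stem than in transit amplifying cells. In that comparison, 60 of the 83 genes were lower in EGFP high than in EGFP low cells and 23 higher, with a median of -0.15 (all genes tested, 0.02). In the top quintile by level the median was -0.20 over the set (18.3% higher) and -0.19 over all genes tested (32.4% higher). In quintile 4 it was -0.425 over 9 genes of the set and -0.084 over all genes there. The lower quintiles held 7 genes of the set or fewer each. Their medians were 0.003 to 0.309 over the set and 0.037 to 0.108 over all genes. Of the 83, 10 fell (12%) and 0 rose, where 6.44% of all genes tested were called lower and 4.48% higher. At an unadjusted p below 0.05, 23 were lower and 1 higher, where 14.4% of all genes were lower and 12.6% higher. The arrays did not overlap for 24 lower genes (28.9%) and 4 higher genes (4.82%), where 11.8% and 10.8% of all genes tested did not. The 10 were Ndufab1, Ndufb3, Ndufs1 and Ndufv3 of complex I, the assembly factor Ndufaf1, Sdhb of complex II, Uqcrfs1 of complex III, and Cox7a1, Cox6b1 and Cox5a of complex IV. No gene of complex V was called. By complex the median was -0.18 for I, -0.34 for II (0 of 4 higher), -0.19 for III (1 of 8 higher), -0.09 for IV and -0.04 for V, and -0.30 for the assembly factors.

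Cox7a1, the heart and skeletal muscle isoform of a small complex IV subunit, had the largest difference. It had 5.39, 6.55 and 7.21 in Atg7KO-High, against 8.04, 8.83, 9.07 and 9.13 in Atg7KO-Low. It fell by 2.39 on the log2 scale (SE 0.43, adjusted p = 0.00382), and remained called in 18 of 18 alternative settings. In WT it had 6.16, 6.93 and 7.54 in EGFP high cells, against 7.78, 7.94, 8.51 and 9.00 in EGFP low cells, also without overlap, with a difference of -1.43 (SE 0.43, adjusted p = 0.107). The difference between the genotypes was -0.96 for this gene and was not called (adjusted p = 0.472).

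Sdhb fell by 0.80 (SE 0.17, adjusted p = 0.00799) with no overlap between the gates in the knockout, and in WT it differed by -0.08 (SE 0.17, adjusted p = 0.875). Its call held in 17 of 18 settings and was lost when array SD entered the fit (adjusted p = 0.0991). Uqcrfs1 fell by 0.79 (SE 0.19, adjusted p = 0.0188), and in WT it differed by 0.01 (SE 0.19, adjusted p = 0.992). The call of Uqcrfs1 held in 13 of 18 settings. Among single arrays, leaving out Atg7KO-High-356 or Atg7KO-High-348 ended it, with an adjusted p of 0.0983 and 0.0616. Cox8a was not called, at -0.21 (SE 0.15, adjusted p = 0.4).

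The complex I genes that fell differ in role. Ndufs1 had 7.35, 7.73 and 7.83 in Atg7KO-High, against 8.23, 8.26, 8.30 and 8.39 in Atg7KO-Low, and fell by 0.66 (SE 0.16, adjusted p = 0.0197). The groups did not overlap, and of the single arrays Atg7KO-High-348 alone ended the call when left out (adjusted p = 0.0983). Ndufab1, the mitochondrial acyl carrier protein, which also serves fatty acid synthesis, had 6.17, 6.70 and 6.77 in Atg7KO-High, against 7.22, 7.57, 8.02 and 8.42 in Atg7KO-Low, and fell by 1.26 (SE 0.32, adjusted p = 0.0204). The call was lost without Atg7KO-High-356, its lowest array (adjusted p = 0.101), and also without Atg7KO-High-348, Atg7KO-Low-386 or Atg7KO-Low-387 (adjusted p from 0.0515 to 0.0542). Ndufb3, an accessory subunit of the membrane arm, had 5.36, 6.59 and 6.67 in Atg7KO-High, against 6.81, 7.27, 7.43 and 7.59 in Atg7KO-Low, and fell by 1.07 (SE 0.27, adjusted p = 0.0216). Atg7KO-High-348 was far below the others there, and without it the difference was -0.65 (adjusted p = 0.0821). The call also ended without Atg7KO-Low-356 (adjusted p = 0.0505).

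Ndufaf1, a chaperone that builds the membrane arm of complex I, had 6.65, 6.71 and 7.06 in Atg7KO-High, against 7.37, 7.62, 7.74 and 7.78 in Atg7KO-Low, and fell by 0.82 (SE 0.22, adjusted p = 0.0285). Its call ended when Atg7KO-High-356, Atg7KO-High-386, Atg7KO-Low-386 or Atg7KO-Low-387 was left out (adjusted p from 0.0651 to 0.114) and when array SD entered the fit (adjusted p = 0.309). The remaining falls were smaller, at 0.49 for Ndufv3 (SE 0.14, adjusted p = 0.0352), an accessory subunit beside the NADH site, 0.46 for Cox6b1 (SE 0.14, adjusted p = 0.0459) and 0.44 for Cox5a (SE 0.13, adjusted p = 0.0424), a matrix-side subunit of complex IV. These last 3 were the least stable and held in 9, 5 and 7 of 18 settings. Leaving out single arrays left between 4 and 9 of the set called, with 4 without Atg7KO-High-348 and 5 without Atg7KO-High-356, and with a covariate for array SD 2 were called, Cox7a1 and Ndufab1.

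**Figure D4:**
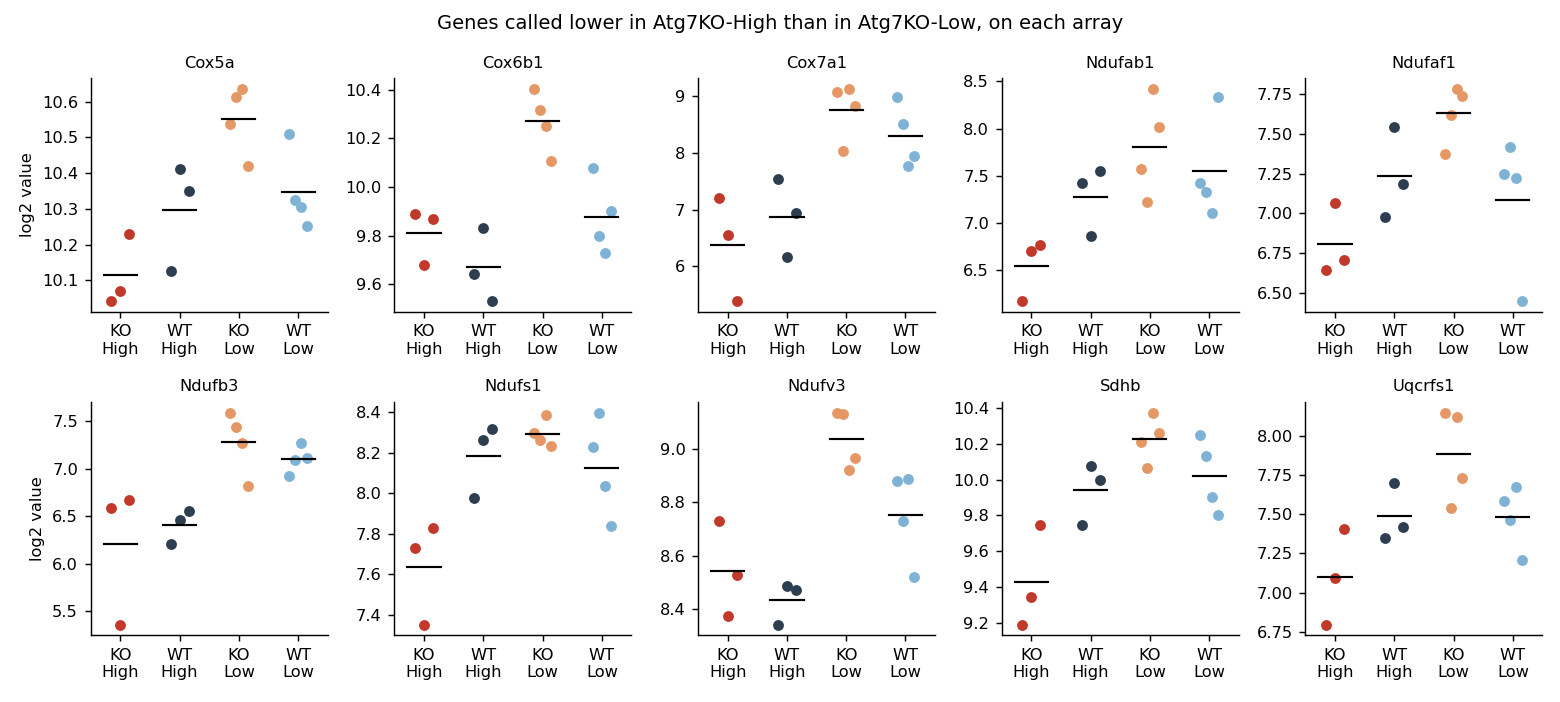
Log2 value (vertical axes, which differ between panels and do not start at 0) of the 10 genes called lower in Atg7KO-High than in Atg7KO-Low, on each of the 14 arrays by group (KO is Atg7KO). Points are arrays and bars are group means. For all 10 the Atg7KO-High arrays lay below the Atg7KO-Low arrays, and Cox7a1, Ndufb3 and Ndufv3 were also lower in WT-High than in WT-Low without overlap.

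In WT the gates showed no shared direction. Of the 83 genes, 46 were higher and 37 lower in WT-High than in WT-Low, with a median of 0.04 (all genes tested, 0.03). No gene of the 83 was called by limma, where 2.44% of all genes tested were called, 1.22% higher and 1.22% lower, and at an unadjusted p below 0.05, 3 were higher and 3 lower, where 8.88% of all genes were higher and 5.91% lower. The arrays did not overlap for 3 higher genes (3.61%) and 4 lower genes (4.82%), where 9.97% and 6.52% of all genes tested did not. Ndufb11, a subunit of the membrane arm of complex I, had 5.94, 6.50 and 6.67 in WT-High, against 4.90, 5.51, 5.58 and 5.87 in WT-Low. The arrays were just apart, with a difference of 0.90 (SE 0.28, adjusted p = 0.12). Ndufb3 differed by -0.69 (SE 0.27, adjusted p = 0.227) and Ndufv3 by -0.32 (SE 0.14, adjusted p = 0.295), both without overlap. Cox8a differed by 0.33 (SE 0.15, adjusted p = 0.324). The pseudogene Cox5b-ps, whose probes may read its parent Cox5b, was lower in WT-High by 0.56 (adjusted p = 0.0494), a call kept in 7 of 18 settings and lost without any single WT array.

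**Figure D5:**
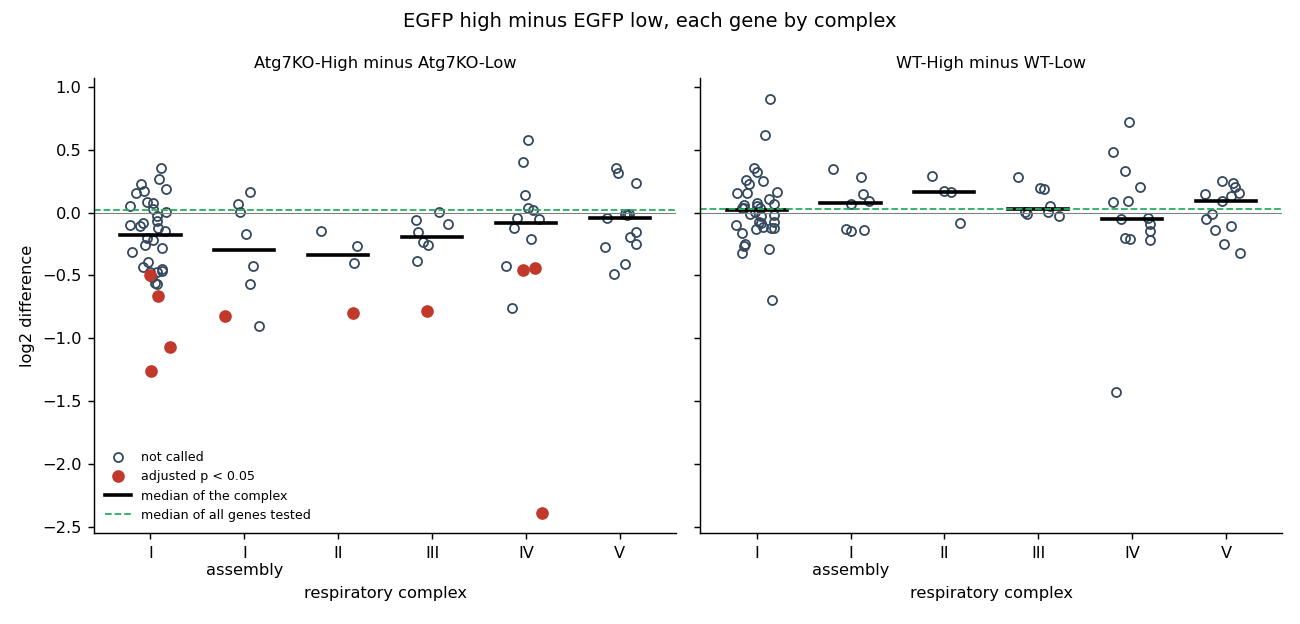
Log2 difference between the gates for each tested gene by complex, Atg7KO-High minus Atg7KO-Low on the left and WT-High minus WT-Low on the right. Filled circles are genes with adjusted p below 0.05, black bars the median of each complex and the dashed line the median of all genes tested. The 10 called genes all lay below 0 in Atg7KO, and none was called in WT.

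Whether the knockout acted differently in the gates was tested by the difference of the 2 knockout effects, EGFP high minus EGFP low. It was below 0 for 62 of the 83 genes and above for 21, with a median of -0.25 (all genes tested, -0.03). For the list of 19 catalytic or central subunits, which leaves out Sdhb and Uqcrfs1, it was below 0 for all 19, with a median of -0.44. No gene of the set was called by limma, where 0.0063% of all genes tested were called. At an unadjusted p below 0.05, 15 were lower and 1 higher, where 8.49% of all genes were lower and 5.53% higher. The values were -0.79 for Ndufv1 (SE 0.26, adjusted p = 0.256), -0.72 for Ndufs1 (SE 0.23, adjusted p = 0.252), -0.72 for Sdhb (SE 0.23, adjusted p = 0.252), -0.79 for Uqcrfs1 (SE 0.27, adjusted p = 0.262) and -0.54 for Cox8a (SE 0.21, adjusted p = 0.298). This difference uses the same arrays as the comparisons above. In the top quintile by level the median was -0.26 over the 60 genes and -0.30 over all genes there. In quintile 4 it was -0.533 over 9 genes of the set and -0.206 over all genes. In quintile 3 it was -0.444 over 7 genes and -0.023 over all genes. In quintiles 1 and 2, with 2 and 5 genes of the set, the medians of both were above 0. After cyclic loess the median of the 83 was -0.01, with 41 higher and 42 lower.

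The 10 falls in the knockout gates also ran beside a difference in array spread and in marker genes. In the top quintile by level the median difference between the knockout gates was -0.20 over the 60 genes of the set and -0.19 over all genes tested there. In quintile 4 it was -0.425 over 9 genes of the set and -0.084 over all genes there. After cyclic loess the median of the 83 was 0.01, with 43 higher and 40 lower, and 7 were still called. After centring each array on its median, which moves the median of all genes tested in comparisons with Atg7KO-High by -0.10 to -0.12, 13 were higher and 70 lower. Goblet cell markers averaged 8.88 to 10.70 in Atg7KO-High against 11.71 to 12.01 in Atg7KO-Low, and enteroendocrine markers 6.44 to 8.61 against 8.55 to 9.85. Enterocyte markers averaged 7.91 to 8.09 against 8.75 to 10.09, and Paneth cell markers 8.94 to 10.05 against 10.59 to 11.31. In WT the goblet cell markers also differed between the gates without overlap, at 10.25 to 10.86 against 11.83 to 12.28. So did the enteroendocrine markers in WT, at 7.34 to 7.68 against 8.72 to 9.45. The enterocyte and Paneth cell markers overlapped between the WT gates. Leukocyte markers averaged 4.24 to 4.47 against 4.18 to 4.34 in Atg7KO. Their part in the falls was not tested.

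Several subunits of complex IV exist as isoforms used in different tissues, and the arrays read them separately. Cox4i1, Cox6a1, Cox6b1, Cox7a2 and Cox8a are the broadly used forms, and all 5 were tested. Of the tissue forms, Cox4i2, known from lung, lay between 4.11 and 4.57 on every array and differed by no more than 0.16 in any of the 4 group comparisons. Cox6b2, a testis form, had 6.29 to 6.46 in Atg7KO-High, 6.09 to 6.47 in WT-High, 5.09 to 6.21 in Atg7KO-Low and 4.65 to 5.99 in WT-Low. It did not overlap between the gates in either genotype, with differences of 0.58 (adjusted p = 0.235) in Atg7KO and 0.72 (adjusted p = 0.266) in WT, opposite to Cox7a1. The heart and muscle form Cox8b and the testis forms Cox7b2 and Cox8c did not pass the filter, with values of 3.09 to 3.77, 2.08 to 2.71 and 2.59 to 3.04. Levels of different probe sets cannot be set against each other.

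The start sites of the genes that fell were looked at because factors named above are known to bind respiratory gene promoters. Windows of 300 bases, 250 before and 50 after the start of the gene, came from RefSeq (GRCm38.p6) for 70 of the 86 protein-coding genes, and were searched on both strands for NRF1 (GCGCA and GCGC with any 1 base between), GABP (CCGGAAG) and YY1 (AAGATGGCG). NRF1's letters were in 22.9% of the 70 against 5.19% of all 27025 genes with a window, GABP's in 25.7% against 9.93%, and YY1's in 10% against 1.64%. No 2 different motifs overlapped in a window. By complex, GABP's letters were in 4 of 32 genes of complex I, 2 of 3 of complex II, 2 of 5 of complex III, 3 of 12 of complex IV and 5 of 11 of complex V. Of the 9 called genes with a window, Sdhb, Cox6b1 and Ndufaf1 held GABP's letters and no window held those of NRF1 or YY1. Ndufs1 is named only. The 3 that held a motif are printed with the 2 falls that represent complexes III and IV, 5′ to 3′ along the gene, with the letters of GABP on either strand in capitals. The windows are chr4:140961021-140961320 (plus strand) for Sdhb, chr2:119662785-119663084 (minus strand) for Ndufaf1, chr7:30626065-30626364 (minus strand) for Cox6b1, chr13:30545267-30545566 (minus strand) for Uqcrfs1 and chr7:30183921-30184220 (plus strand) for Cox7a1.
Sdhb: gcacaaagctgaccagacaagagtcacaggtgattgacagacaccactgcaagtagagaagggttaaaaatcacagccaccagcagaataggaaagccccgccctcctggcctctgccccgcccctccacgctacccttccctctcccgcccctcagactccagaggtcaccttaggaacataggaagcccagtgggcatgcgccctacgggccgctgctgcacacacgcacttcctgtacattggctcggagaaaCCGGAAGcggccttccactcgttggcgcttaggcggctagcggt
Ndufaf1: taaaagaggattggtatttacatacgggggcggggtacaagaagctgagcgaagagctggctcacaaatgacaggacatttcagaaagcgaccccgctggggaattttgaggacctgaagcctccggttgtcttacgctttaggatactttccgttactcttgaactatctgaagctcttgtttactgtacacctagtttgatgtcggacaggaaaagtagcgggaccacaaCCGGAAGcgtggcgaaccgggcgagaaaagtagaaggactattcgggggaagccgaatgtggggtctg
Cox6b1: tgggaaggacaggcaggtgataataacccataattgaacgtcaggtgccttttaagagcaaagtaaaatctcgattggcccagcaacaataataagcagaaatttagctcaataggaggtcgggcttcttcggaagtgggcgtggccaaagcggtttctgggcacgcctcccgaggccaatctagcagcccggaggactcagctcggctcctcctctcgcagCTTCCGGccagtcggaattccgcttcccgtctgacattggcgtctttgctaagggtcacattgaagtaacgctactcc
Uqcrfs1: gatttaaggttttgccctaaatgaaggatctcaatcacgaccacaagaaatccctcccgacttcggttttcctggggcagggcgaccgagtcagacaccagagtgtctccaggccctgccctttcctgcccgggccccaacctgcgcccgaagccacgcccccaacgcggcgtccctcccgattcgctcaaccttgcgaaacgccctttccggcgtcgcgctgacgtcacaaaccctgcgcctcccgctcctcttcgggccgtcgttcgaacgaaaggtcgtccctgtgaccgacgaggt
Cox7a1: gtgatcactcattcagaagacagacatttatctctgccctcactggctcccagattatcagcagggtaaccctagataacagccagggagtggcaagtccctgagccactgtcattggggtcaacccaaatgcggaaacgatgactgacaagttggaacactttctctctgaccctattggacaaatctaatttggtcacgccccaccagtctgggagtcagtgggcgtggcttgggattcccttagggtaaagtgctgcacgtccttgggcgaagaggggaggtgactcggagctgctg
The GABP letters start 6 bases after the start site in Sdhb, 18 before it in Ndufaf1 and 28 before it in Cox6b1, where they lie on the other strand. The windows of Uqcrfs1 and Cox7a1 have no capitals, which says only that these letters are not in them. A match describes the letters and is no evidence of binding here.

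Other mitochondrial and energy genes were read beside the set, from lists also chosen with earlier results known. Of 77 tested mitochondrial ribosome genes, 12 fell (15.6%) in Atg7KO-High against Atg7KO-Low, where 6.44% of all genes tested were called lower. This list of 78 was taken by symbol and holds the pseudogenes Mrpl27-ps and Mrps36-ps1, which were not counted apart. The median of the 77 was -0.46, with 69 lower, and none was called in the other comparisons. Among them Mrpl36 differed by -1.08 (adjusted p = 0.00194) and Mrpl16 by -1.11 (adjusted p = 0.00275). Their median was 0.31 in Atg7KO-Low against WT-Low (73 of 77 higher) and -0.29 in Atg7KO-High against WT-High (18 of 77 higher). Of 14 citric acid cycle genes, 2 fell in Atg7KO-High against Atg7KO-Low (14.3%, against 6.44% of all genes), Suclg1, a subunit of succinyl-CoA ligase, by 0.98 (adjusted p = 0.00136) and Dld, the lipoamide dehydrogenase, by 0.77 (adjusted p = 0.0152).

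Of 41 assembly factors outside the Nduf genes, 3 fell (7.32%) and 1 rose (2.44%) in Atg7KO-High against Atg7KO-Low, near the 6.44% and 4.48% of all genes tested. The 3 were Cox15, which makes heme A (-0.83, adjusted p = 0.0147), the copper chaperone Sco1 (-0.95, adjusted p = 0.0276) and the complex I factor Ecsit (-0.58, adjusted p = 0.0456), and the 1 was Cox16, a complex IV factor (0.93, adjusted p = 0.0316). Of 13 electron carrier and coupling genes, cytochrome c (Cycs, -0.92, adjusted p = 0.0397) and Coq5 (-1.28, adjusted p = 0.00932) fell, whereas Coq2 rose by 0.87 (adjusted p = 0.00828). These are 15.4% lower and 7.69% higher, against 6.44% and 4.48% of all genes tested. Both Coq genes encode enzymes of ubiquinone synthesis. Of 18 regulators of mitochondrial biogenesis, Esrrg, a nuclear receptor that drives respiratory genes in muscle, was higher in EGFP high cells in both genotypes, by 1.24 (adjusted p = 0.00127) in Atg7KO and 0.81 (adjusted p = 0.0351) in WT, and no other was called. That is 5.56% of the 18 in each genotype, where 4.48% of all genes tested were called higher in Atg7KO and 1.22% in WT.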

How the data were processed

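RNA from 14 sorted cell samples was read on Affymetrix Mouse Gene 2.0 ST arrays. Each labelling started from 1 ng of RNA, amplified per the labels' protocols. The deposited log2 values are RMA values that the authors obtained in Affymetrix Expression Console, as the submitters' processing notes name these tools. Their versions are not stated in the sources used here. RMA subtracts background, quantile normalizes probes and summarises them per probe set, which can narrow differences, and values are comparable between arrays but not between probe sets. The table held 25429 probe sets, of which 24675 carried 1 gene symbol of the platform annotation and 754 none. Values ran from 1.65 to 13.78, with array medians of 4.30 to 4.49. Arrays give no read depth, and their number limits the precision.

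A gene was tested if, on 3 or more arrays, it reached the 40th percentile of that array, which held for 15873 genes. The 4 group means were fitted in limma 3.58.1 by lmFit, then eBayes (R 4.3.3). Tests were two-sided and had 10 residual and 4.54 prior degrees of freedom. The fit was tested on simulated data. Replicates came from individual mice. Members, gene lists and tests were chosen with earlier results of these data known. Genes named are the markers Sdhb, Cox8a and Uqcrfs1, catalytic or central subunits, complex IV isoforms, called genes, the smallest p per complex, genes without overlap, and called genes of the context lists. A list was described by counts and its median. Alternatives changed the filter, the scaling, the prior, the arrays in the fit, their weights and a block on title numbers. RefSeq promoter windows were searched as text.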

Additional observations from a re-analysis of the deposited data

Results flagged for a closer look

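A sample far from the others of its group was found for 4 genes of the set. Ndufa4 was 11.29 in Atg7KO-Low-353, against 11.07 to 11.08 on the other 3 Atg7KO-Low arrays. It is a small subunit that associates with complex IV, but its symbol placed it among the 36 genes of complex I. Ndufs7, an iron-sulfur subunit of complex I, was 7.77 on the same array, against 8.21 to 8.28. Ndufb5, an accessory subunit of complex I, was 10.61 in Atg7KO-Low-387, against 10.36 to 10.39. Atp5pb, the peripheral stalk subunit b of ATP synthase, was 8.64 in WT-Low-411, against 8.97 to 9.03 on the other 3 WT-Low arrays. The gaps to the nearest array were 0.948, 0.862, 0.88 and 0.847 of the group's range for Ndufa4, Ndufs7, Ndufb5 and Atp5pb, above Dixon's 95% critical value for 4 samples. Chance gives such a gap in about 1 in 20 groups, and 186 groups of 4 arrays were examined, over 86 tested genes (3 of them pseudogenes) and the means of the set and its complexes. WT-Low-411 was also the WT-Low array with the lowest SD of all values.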

How the results depend on the processing

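Across all alternatives run, 0 genes of the set were called for Atg7KO-Low against WT-Low and for the gate difference in the knockout effect, and the median of Atg7KO-Low against WT-Low kept its sign. For Atg7KO-High against Atg7KO-Low the median of the 83 genes was -0.045 after a further quantile normalisation, 0.006 after cyclic loess and -0.253 after median centring. For it 6 genes were called after quantile normalisation, 5 with only the 2 groups in the fit, 2 with the array SD as a covariate and 4 to 9 without single arrays. For Atg7KO-High against WT-High the median was -0.078 with a filter at the 60th percentile, 0.119 after cyclic loess, -0.08 after median centring and -0.078 (without WT-High-388) to 0.032 (without WT-High-411) when single arrays were left out, and array weights called 8. For WT-High against WT-Low array weights called 2, and the medians ran from -0.045 (without WT-Low-409) to 0.095 (without WT-High-388). For the gate difference in the knockout effect the median was -0.14 after quantile normalisation, -0.008 after cyclic loess, -0.377 after median centring and -0.089 with the array SD as a covariate. Signs turned for Cox8a in Atg7KO-High against Atg7KO-Low (0.016 with cyclic loess and 0.008 with the array SD) and against WT-High (0.064 with the array SD), and for Ndufaf1 in Atg7KO-High against WT-High (0.036 with the array SD). In WT-High against WT-Low, Sdhb ran from -0.154 (without WT-Low-411) to 0.016 (without WT-High-388) when single arrays were left out, and was -0.192 with the array SD. There Uqcrfs1 was -0.052 with quantile normalisation, -0.097 with cyclic loess, -0.047 with array weights, -0.081 with the array SD, -0.084 without WT-Low-411 and Atg7KO-High-356, and -0.098 (without WT-High-411) to 0.077 (without WT-High-388). The cause of these changes was not tested. Wherever genes of the set are counted as called in an alternative, the share of all genes called in that setting is not given here. Such counts describe the set alone. The numbers that end Atg7KO-High-356, Atg7KO-High-386 and WT-High-411 occur in both gates. Deviations from the group means of same-numbered arrays correlated across genes at 0.115, 0.182 and -0.04 for them, so they were not taken as pairs. With the number as a replicate block (correlation 0.073), 10 genes were called for Atg7KO-High against Atg7KO-Low and 0 in the other comparisons. Its medians were -0.156 there, 0.012 for Atg7KO-High against WT-High, 0.221 for Atg7KO-Low against WT-Low, 0.035 for WT-High against WT-Low and -0.25 for the gate difference in the knockout effect. The number of arrays a group, 3 or 4, limits what could be called.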

Other observations

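Of 9 tested glycolysis genes, 2 fell in Atg7KO-High against Atg7KO-Low (22.2%, where 6.44% of all genes tested were called lower). Pfkp, a phosphofructokinase isoform, fell by 1.94 (SE 0.26, adjusted p = 0.000708), and Ldha, a lactate dehydrogenase subunit, fell by 0.63 (SE 0.16, adjusted p = 0.024). Pfkp also fell in WT-High against WT-Low, with a difference of -1.06 (SE 0.26, adjusted p = 0.0477), where 1.22% of all genes were called lower. The median of the 9 was -0.40 in Atg7KO-High against Atg7KO-Low, -0.33 in Atg7KO-High against WT-High and 0.05 in Atg7KO-Low against WT-Low. The mean level of the 9 was 6.41 to 6.67 in Atg7KO-High, below the 6.84 to 7.01 of WT-High and the 6.93 to 7.20 of Atg7KO-Low, without overlap, and WT-Low ran from 6.78 to 7.19. Pfkl, the liver form of phosphofructokinase, differed by -0.92 (SE 0.18, adjusted p = 0.131) in Atg7KO-High against WT-High and was not called.

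Among the complex assembly factors, Atpaf1, a chaperone of the ATP synthase head, was higher in WT-High than in WT-Low by 0.99 (SE 0.24, adjusted p = 0.0463). It was 1 of 41 (2.44%), where 1.22% of all genes were called higher. It differed by 0.79 (adjusted p = 0.495) in Atg7KO-Low against WT-Low, which was not called.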
